A study of Mus musculus with 11 samples.

Results

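Fatty acid synthesis, storage and oxidation were followed through 44 genes, chosen by symbol as lipogenic enzymes, lipid droplet and lipase genes, beta oxidation genes and ketone body genes, of the 39017 genes in the count table. All 44 were found in the table, and all 44 passed the filter on low counts in each comparison. RNA bound to the HA-tagged ribosomes of hippocampal astrocytes was sequenced from 11 female mice on the C57BL/6J background at 12 to 14 months of age, with 1 library per mouse. The 3 WT (sham) mice were F1, F3 and F4. The 4 mice of the ERβ cKO (sham) group were F1, F3, F4, F5. The 4 WT (GDX) mice were F1 to F4, where GDX is gonadectomy, done at 2 months. Values by mouse are given below in this order of groups and mice. Every mouse, the WT mice included, carried the RiboTag allele of Rpl22 and the mGFAP-Cre transgene. In it the mouse Gfap promoter drives Cre, so the tag marks cells that have expressed Gfap. The ERβ cKO (sham) mice carried in addition homozygous floxed Esr2, the gene of estrogen receptor beta, with exon 3 floxed. They came from other breeding pairs than the WT mice, so breeding line and genotype cannot be told apart in these data. All 3 ways of pairing the groups were compared, and the comparisons of ERβ cKO (sham) and of WT (GDX) with WT (sham) share the same 3 WT (sham) mice. ERβ cKO (sham) and WT (GDX) differ in surgery as well as in genotype and line, which cannot be told apart in that comparison.

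Fatty acids are built in the cytosol from acetyl-CoA by acetyl-CoA carboxylase and fatty acid synthase, then desaturated and lengthened at the endoplasmic reticulum. They are stored as triglyceride in lipid droplets, released by lipases that act in sequence, activated to acyl-CoA, and carried as carnitine esters into mitochondria for beta oxidation. Astrocytes hold most of the fatty acid oxidation capacity of the brain, supply polyunsaturated fatty acids and cholesterol to neurons, and can take up peroxidized lipids that neurons release. Estrogens act on lipogenic and lipolytic genes in liver and fat, where much of this pathway was first worked out.

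Total counts were 16956233 to 18190968 per library. The targeted gene gave no check of the deletion, since Esr2 had 0 to 7 counts in any library and counts per gene do not separate exon 3. The 15 astrocyte markers (Aqp4, Gja1, Gfap and others) were all detected in every mouse. Their summed level differed between the groups: it was 23470 to 26997 CPM in WT (sham), 20089 to 24593 CPM in ERβ cKO (sham) and 28040 to 33303 CPM in WT (GDX). CPM are counts scaled to a common library size by TMM factors. In ERβ cKO (sham) against WT (GDX), 10 of these 15 markers passed the test and all 15 had negative values. In a bulk pulldown, fewer cells of a type and less RNA per cell cannot be told apart. The 14 neuronal markers summed to 11539 to 14032 CPM over the 11 mice with no such order. The 7 adipocyte markers summed to at most 1.02 CPM in any mouse, a point that bears on Thrsp, Pnpla2 and Lipe, which are also abundant in fat. The sum of the 15 choroid plexus markers was 114 to 373 CPM in WT (sham) and 51.9 to 65.1 CPM in the other groups. Of these 15 markers, 7 were lower in WT (GDX) and 3 in ERβ cKO (sham), each against WT (sham). Markers of endothelium and pericytes summed to 225 to 283 CPM in ERβ cKO (sham), 109 to 205 CPM in WT (GDX) and 105 to 233 CPM in WT (sham). Against WT (GDX), 4 of these and the neuronal marker Camk2a were higher in ERβ cKO (sham). There Cspg4 and Olig1 of oligodendrocyte precursors also passed, 1 higher and 1 lower. So did Col1a1 and Igfbp2 of meninges and fibroblasts. The 12 markers of ependyma and motile cilia summed to 63.7 to 70.2 CPM in WT (sham). Neither ERβ cKO (sham) at 26.8 to 53.1 CPM nor WT (GDX) at 27.7 to 53.6 CPM overlapped WT (sham). Drc7, 1 of these markers, was lower in WT (GDX) than in WT (sham). The 9 markers of meninges and fibroblasts summed to 217 to 222 CPM in WT (sham) and 175 to 204 CPM in ERβ cKO (sham). In WT (GDX) they summed to 198 to 218 CPM, and Igf2 was lower there than in WT (sham). The 5 blood markers summed to 3.76 to 25.7 CPM in WT (sham), 0.279 to 7.58 CPM in ERβ cKO (sham) and 2.83 to 3.51 CPM in WT (GDX), and none passed. The 14 oligodendrocyte markers summed to 556 to 820 CPM in WT (sham) and 539 to 884 CPM in ERβ cKO (sham). They summed to 631 to 723 CPM in WT (GDX), and none passed. In ERβ cKO (sham), 13 had positive log2 fold changes against WT (sham) (median 0.25) and 11 against WT (GDX) (median 0.235). The 12 microglia markers summed to 52.2 to 75.2 CPM over the 11 mice, and none passed. The part of these cell types in the results below was not tested.

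RNA of every step of the pathway was detected in the pulldown, with a desaturase gene at the highest level. Neuronal markers were abundant in the same libraries, and the share of each gene's RNA that came from astrocytes was not tested. Per kilobase of exon, Scd2, a stearoyl-CoA desaturase, had the highest mean over the 11 mice with 681 CPM per kb, followed by the delta-5 desaturase gene Fads1 with 155, Oxct1, which starts the use of ketone bodies, with 98.6, and Mgll, the monoacylglycerol lipase gene, with 93.0 CPM per kb. Scd1, Acsl3 and Thrsp followed with 91.1, 89.1 and 60.2 CPM per kb. Scd2 alone made up 41.6% to 44.8% of the summed CPM of the 44 genes in each mouse. At the other end, the mean level per kilobase was 0.827 CPM per kb for Acacb, the acetyl-CoA carboxylase at the mitochondrial surface, 1.85 for the nuclear receptor gene Ppara, 1.87 for the hormone-sensitive lipase gene Lipe, 1.91 for Acaca, the cytosolic acetyl-CoA carboxylase, and 2.27 for the droplet coat gene Plin2. The sum over the 44 genes was 8111 to 8817 CPM in WT (sham), 7019 to 8427 CPM in ERβ cKO (sham) and 9230 to 10535 CPM in WT (GDX).

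**Figure D1:**
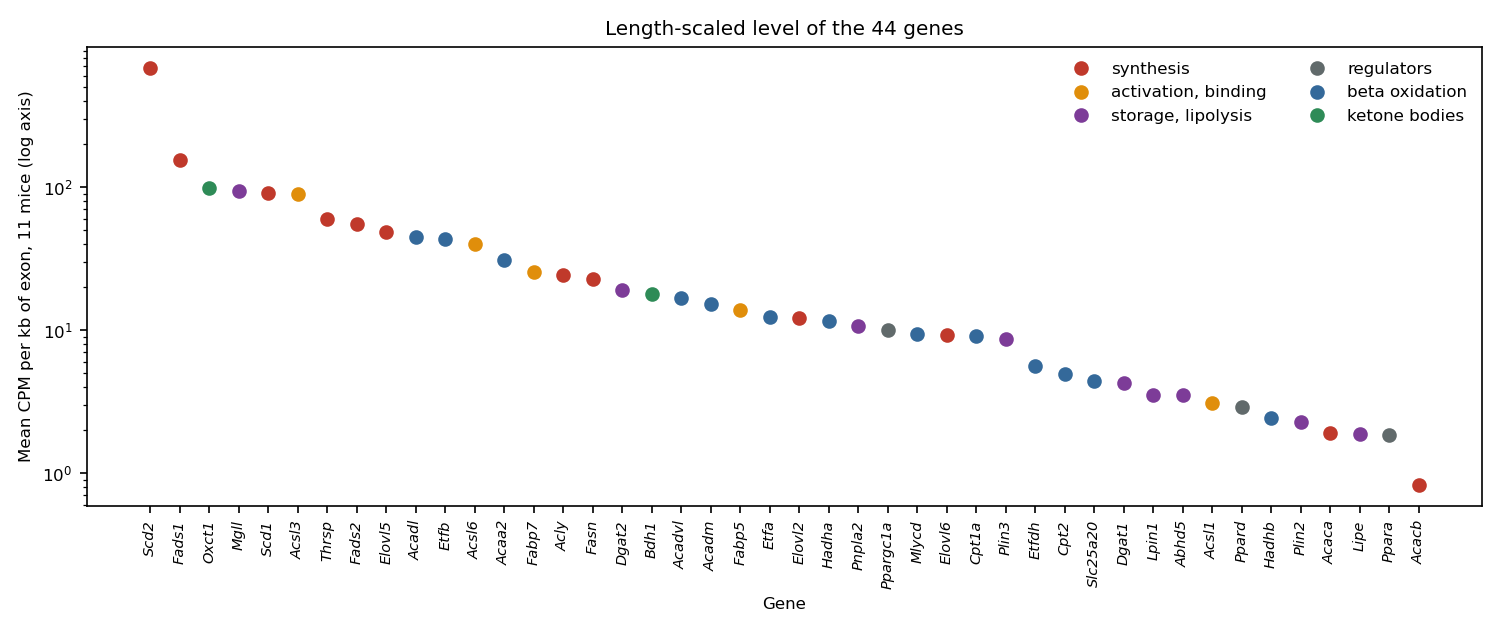
Mean level of each of the 44 genes over the 11 mice in CPM per kb of exon on a log axis, in falling order and coloured by role. Scd2 stands at 681 CPM per kb, and Acacb is the lowest at 0.827.

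Across the comparisons, 0 of the 44 genes passed the test between ERβ cKO (sham) and WT (sham), 2 rose in WT (GDX) against WT (sham), and 9 were lower in ERβ cKO (sham) than in WT (GDX). A gene passed where the adjusted p was under 0.1 in edgeR's quasi-likelihood test, with Benjamini-Hochberg adjustment over all genes tested. Over all genes tested, 0.0301% passed in the comparison of ERβ cKO (sham) with WT (sham), 0.437% in that of WT (GDX) with WT (sham) and 4.15% in that of ERβ cKO (sham) with WT (GDX). By direction, 0.015% of all genes were higher and 0.015% lower in the first of these. In the second 0.325% were higher and 0.112% lower, and in the third 1.93% were higher and 2.22% lower. The 2 genes that rose after gonadectomy, Thrsp and Pnpla2, were also the ones with the smallest p between ERβ cKO (sham) and WT (GDX).

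**Figure D2:**
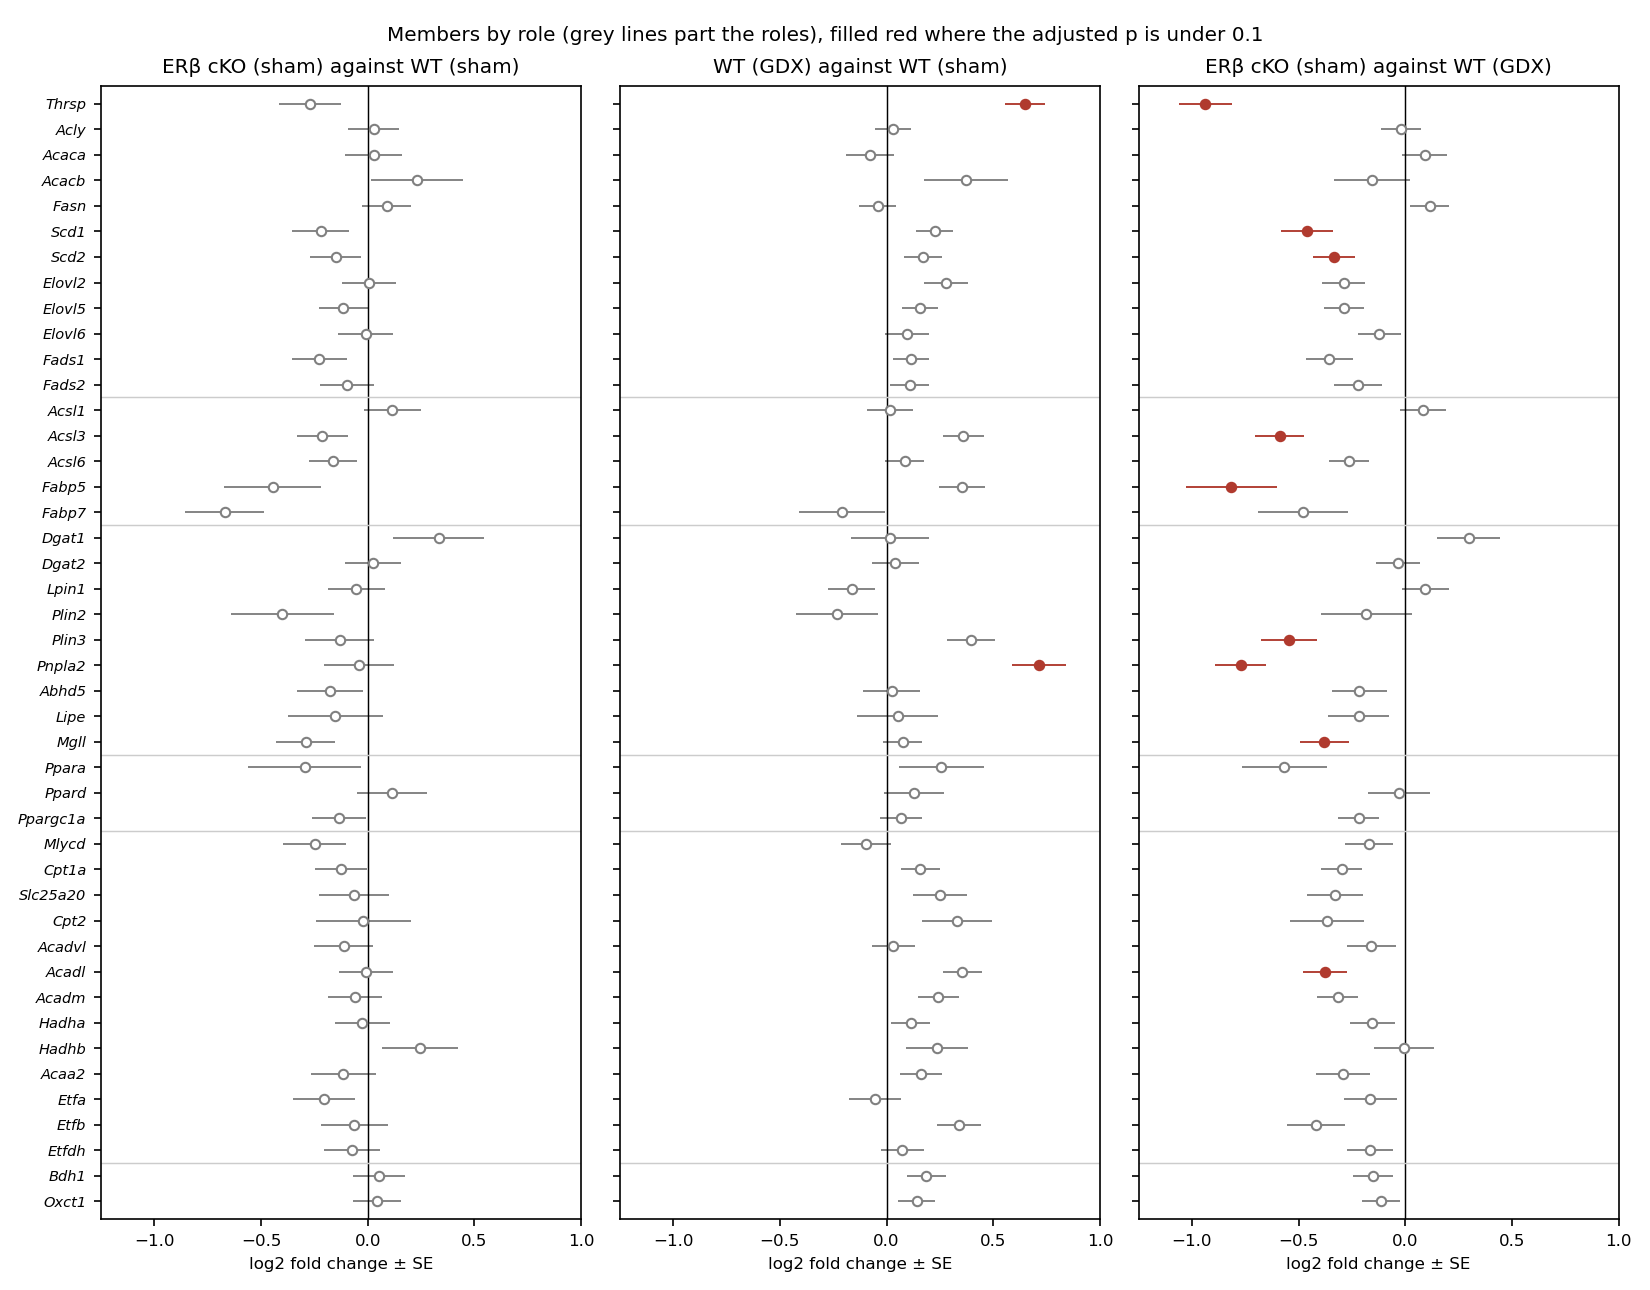
Log2 fold change ± SE of each of the 44 genes, ordered by role, in the comparisons of ERβ cKO (sham) with WT (sham), of WT (GDX) with WT (sham) and of ERβ cKO (sham) with WT (GDX). Filled red points passed at an adjusted p under 0.1: 0 in the left panel, Thrsp and Pnpla2 to the right of 0 in the middle, and 9 genes to the left of 0 in the right panel.

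Thrsp (ENSMUSG00000035686, chr7:97412938-97417730 of mm10, minus strand) encodes the thyroid hormone-responsive protein also called Spot 14, which promotes lipogenesis in liver and mammary gland. It was at 123, 101 and 119 CPM in WT (sham), at 85.8, 77.4, 91.8 and 123 CPM in ERβ cKO (sham), and at 191, 170.2, 199.6 and 166 CPM in WT (GDX). All 4 WT (GDX) mice were above all 7 sham-operated mice, while within the sham-operated mice the ERβ cKO mouse F5 stood among the WT mice and the other 3 ERβ cKO mice were below them. Thrsp rose 1.57-fold after gonadectomy (log2 fold change 0.65, SE 0.09, adjusted p = 0.00165, edgeR's quasi-likelihood test), and it was at 0.523 of the WT (GDX) level in ERβ cKO (sham) (log2 fold change -0.94, SE 0.13, adjusted p = 0.00536, edgeR). In the sham-operated mice the log2 fold change between genotypes was -0.27 (SE 0.14, adjusted p = 0.946, edgeR), which did not pass.

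Pnpla2 (ENSMUSG00000025509, chr7:141455198-141460743 of mm10, plus strand) encodes adipose triglyceride lipase, the enzyme that takes the first fatty acid off triglyceride. Its level was 27.1, 20.9 and 31.0 CPM in WT (sham), 26.5, 20.9, 24.7 and 29.9 CPM in ERβ cKO (sham), and 46.7, 42.6, 47.1 and 38.6 CPM in WT (GDX). The sham-operated groups covered nearly the same range, and all WT (GDX) mice were above it. Pnpla2 rose 1.64-fold after gonadectomy (log2 fold change 0.71, SE 0.13, adjusted p = 0.0112, edgeR's quasi-likelihood test). This call was lost when WT (sham) F3, the lowest of its group, was left out (adjusted p = 0.145, edgeR). In ERβ cKO (sham) the level was 0.586 of that in WT (GDX) (log2 fold change -0.77, SE 0.12, adjusted p = 0.00802, edgeR), while against WT (sham) the log2 fold change was -0.04 (SE 0.16). Abhd5, whose product CGI-58 activates this lipase, did not pass in any comparison, with log2 fold changes of -0.18, 0.02 and -0.21 (SE 0.15, 0.14 and 0.13) between the sham-operated genotypes, after gonadectomy, and in ERβ cKO mice against gonadectomized mice.

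The start regions of these genes are shown because both passed in WT (GDX) against WT (sham). Whether they share a regulator was not tested. RefSeq promoter windows of 300 bases (250 before to 50 after the start of a transcript, GRCm38.p6) were matched by symbol for 37 of the 44 genes, with 44 windows in all. For Pnpla2 the 250 bases before the start (chr7:141454938-141455187, plus strand) are given with GC boxes of Sp1-type factors (GGGCGG, either strand) in capitals. For Thrsp, GENCODE places most of the window inside the transcript's leader, and only 30 bases (chr7:97417586-97417615, minus strand) around a CCAAT box (capitals) are given. These 30 bases too lie inside the GENCODE gene, which begins at 97417730 on this strand, and not before its start.
Pnpla2: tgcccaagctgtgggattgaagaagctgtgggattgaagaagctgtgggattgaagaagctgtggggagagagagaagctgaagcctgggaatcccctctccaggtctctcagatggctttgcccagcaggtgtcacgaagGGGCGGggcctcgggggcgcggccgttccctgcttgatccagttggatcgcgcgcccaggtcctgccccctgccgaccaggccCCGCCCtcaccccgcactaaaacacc
Thrsp: gggctgtgttgctCCAATggttgggctttg
The GC box letters were in 26 of the 44 windows, which belong to 23 genes, and in 35.7% of all 32851 windows, both strands searched. The CCAAT letters were in 18 of the 44 windows, which belong to 17 genes, and in 37.4% of all windows. Thrsp held the CCAAT letters at another place too, on the opposite strand, and no GC box, and Pnpla2 held no CCAAT letters. The full estrogen response element, GGTCA and its reverse complement TGACC set 3 bases apart, was in 0 of the 44 windows and in 0.07% of all windows. Its arm GGTCA alone, which the full element contains, was in 19 of the 44 windows, which belong to 18 genes, and in 40.5% of all windows, but not in those of Thrsp and Pnpla2. The direct repeat DR1 bound by PPARs with RXR, AGGTCA given again after 1 base, was in 0 of the 44 windows and in 0.0396% of all windows. These are matches of letters in a short window and not binding sites.

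**Figure D3:**
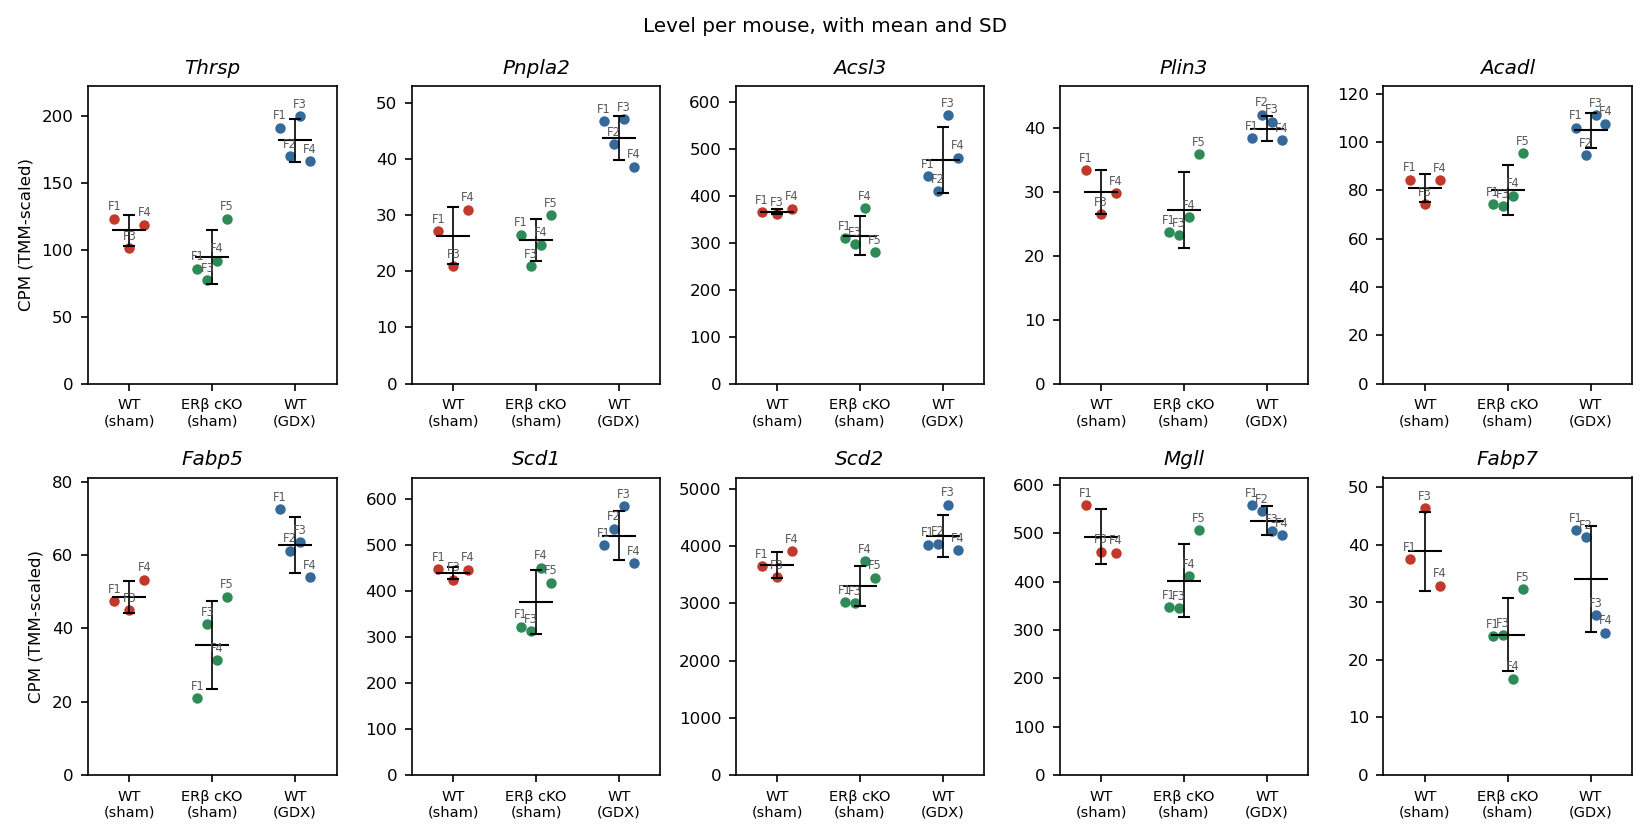
Level in CPM of the 9 genes that passed in any comparison and of Fabp7, with 1 point per mouse labelled by its number, and the mean and SD of each group; each axis starts at 0. For Thrsp and Pnpla2 the 4 WT (GDX) mice are above all sham-operated mice, and for Fabp7 the 4 ERβ cKO (sham) mice are below the 3 WT (sham) mice.

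Among the 12 genes of synthesis, desaturation and elongation, the genes of the first steps did not pass in any comparison, and both stearoyl-CoA desaturase genes were lower in ERβ cKO (sham) than in WT (GDX). Acly, which makes cytosolic acetyl-CoA from citrate, had log2 fold changes of 0.03, 0.03 and -0.02 (SE 0.12, 0.09 and 0.09) in the comparisons as ordered in the plot of fold changes, an order kept in the rest of the text. Acaca had 0.03, -0.08 and 0.09 (SE 0.13, 0.11 and 0.10), and Fasn, the fatty acid synthase gene, 0.09, -0.04 and 0.11 (SE 0.11, 0.09 and 0.09). None of these passed. Acacb was at 6.62, 6.30 and 7.40 CPM in WT (sham), at 6.77 to 9.36 CPM in ERβ cKO (sham) and at 6.85 to 10.8 CPM in WT (GDX), with overlapping groups and log2 fold changes of 0.23, 0.37 and -0.16 that did not pass.

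The stearoyl-CoA desaturases Scd1 and Scd2, neighbours on mouse chromosome 19, put the first double bond into saturated fatty acids. Scd1 (chr19:44394455-44407879 of mm10) was at 448, 424 and 446 CPM in WT (sham), at 322, 313, 451 and 418 CPM in ERβ cKO (sham), and at 499.7, 535, 585 and 461 CPM in WT (GDX). Mice F1 and F3 of ERβ cKO (sham) were far below the rest, F4 and F5 were near WT (sham), and no WT (GDX) mouse overlapped either sham-operated group. Scd1 was lower in ERβ cKO (sham) than in WT (GDX) with a log2 value of -0.46 (SE 0.12, adjusted p = 0.0686, edgeR's quasi-likelihood test), against -0.22 (SE 0.13) and 0.23 (SE 0.09, adjusted p = 0.471, edgeR) in the comparisons with WT (sham). Scd2 (chr19:44293674-44306864) was at 3648, 3458 and 3910.0 CPM in WT (sham), at 3013, 3002, 3729 and 3444 CPM in ERβ cKO (sham), and at 4023, 4042, 4722 and 3928 CPM in WT (GDX). The same mice F1 and F3 were lowest, and again WT (GDX) did not overlap the other groups, with WT (GDX) F3 well above the rest of its group. The log2 fold change of Scd2 between ERβ cKO (sham) and WT (GDX) was -0.33 (SE 0.10, adjusted p = 0.0938, edgeR), and -0.15 (SE 0.12) and 0.17 (SE 0.09) against WT (sham).

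The genes of the polyunsaturated branch had negative values in ERβ cKO (sham) against WT (GDX) that did not pass. Fads1 was at 812, 714 and 758 CPM in WT (sham), at 581, 537, 706 and 772 CPM in ERβ cKO (sham) and at 802, 815, 871 and 851 CPM in WT (GDX). The last 2 groups did not overlap, and Fads1 lay just outside the threshold (log2 fold change -0.36, SE 0.11, adjusted p = 0.101, edgeR). Elovl5, which lengthens polyunsaturated fatty acids, had no overlap between WT (GDX) and either sham-operated group and log2 fold changes of -0.12, 0.16 and -0.29 (SE 0.12, 0.08 and 0.09). Elovl2, which extends the longest of these chains, had 0.01, 0.28 and -0.29 (SE 0.13, 0.10 and 0.10), and WT (GDX) was above WT (sham) without overlap. The delta-6 desaturase gene Fads2 and Elovl6, which lengthens palmitate, overlapped between all groups, with log2 fold changes between -0.22 and 0.11 and between -0.12 and 0.10. Thrsp, Scd1 and Scd2 were the 3 of these 12 genes that passed between ERβ cKO (sham) and WT (GDX), and Thrsp was the 1 that passed after gonadectomy.

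Of the 5 genes of acyl-CoA activation and fatty acid binding, Acsl3 and Fabp5 were lower in ERβ cKO (sham) than in WT (GDX). Acsl3 (chr1:78657825-78707743 of mm10) encodes a long-chain acyl-CoA synthetase of the endoplasmic reticulum and nascent lipid droplets. It was at 366, 362 and 373 CPM in WT (sham), at 311, 297, 374 and 281 CPM in ERβ cKO (sham), and at 442, 410.5, 573 and 482 CPM in WT (GDX). The 3 WT (sham) mice lay close together, all WT (GDX) mice were above every sham-operated mouse, and 3 of the 4 ERβ cKO (sham) mice were below WT (sham). Acsl3 had a log2 fold change of -0.59 between ERβ cKO (sham) and WT (GDX) (SE 0.11, adjusted p = 0.0194, edgeR's quasi-likelihood test), and 0.36 after gonadectomy (SE 0.10, adjusted p = 0.154, edgeR). Without WT (GDX) F3, the highest mouse, the adjusted p of the former became 0.104 (edgeR). The exons of Acsl3 share 244 bases with Utp14b on the same strand, so a part of its reads may have been counted for both or for neither. Acsl1 and Acsl6, its paralogues, did not pass: Acsl1 had log2 fold changes of 0.12, 0.02 and 0.08 (SE 0.14, 0.11 and 0.11), and Acsl6 had -0.16, 0.09 and -0.26 (SE 0.11, 0.09 and 0.09), with no overlap between ERβ cKO (sham) and WT (GDX) for Acsl6.

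The fatty acid-binding protein genes had the widest spans between the highest and the lowest mouse among the 44 genes, and their groups were ordered differently. Fabp5 (chr3:10012548-10016607), which carries fatty acids in the cytosol and to nuclear PPARs, was at 47.4, 44.9 and 53.3 CPM in WT (sham), at 21.0, 41.2, 31.4 and 48.6 CPM in ERβ cKO (sham), and at 72.5, 61.2, 63.6 and 53.9 CPM in WT (GDX). Its highest mouse was at 3.46 times its lowest, and WT (GDX) stood above both sham-operated groups, by a narrow margin over WT (sham). Fabp5 was lower in ERβ cKO (sham) than in WT (GDX) (log2 fold change -0.81, SE 0.22, adjusted p = 0.0907, edgeR), with -0.45 (SE 0.23) and 0.35 (SE 0.11, adjusted p = 0.238, edgeR) against WT (sham). Fabp7 (chr10:57784881-57788450), the brain-type binding protein of astrocytes and radial glia, was at 37.5, 46.4 and 32.9 CPM in WT (sham), at 24.1, 24.3, 16.8 and 32.3 CPM in ERβ cKO (sham), and at 42.6, 41.3, 27.8 and 24.7 CPM in WT (GDX). All ERβ cKO (sham) mice were below all WT (sham) mice, by a narrow margin at the nearest, whereas the WT (GDX) mice fell into a higher and a lower pair and overlapped both other groups. The log2 fold change of Fabp7 was -0.67 between the sham-operated genotypes, the most negative of the 44 genes in that comparison, and it did not pass (SE 0.19, unadjusted p = 0.00226, adjusted p = 0.541, edgeR's quasi-likelihood test). It passed without ERβ cKO (sham) F5 (log2 fold change -0.83, adjusted p = 0.0220, edgeR). Against WT (sham) the value of WT (GDX) was -0.21 (SE 0.20), and ERβ cKO (sham) against WT (GDX) gave -0.48 (SE 0.21, adjusted p = 0.273, edgeR).

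Among the 9 genes of triglyceride storage and lipolysis, Pnpla2 rose after gonadectomy, and Pnpla2, Plin3 and Mgll were lower in ERβ cKO (sham) than in WT (GDX). Plin3 (chr17:56277476-56292873), which encodes a perilipin found on small and new lipid droplets, was at 33.4, 26.5 and 29.8 CPM in WT (sham), at 23.7, 23.2, 26.0 and 35.9 CPM in ERβ cKO (sham), and at 38.3, 42.0, 41.0 and 38.1 CPM in WT (GDX). WT (GDX) was above all sham-operated mice with little spread, and ERβ cKO (sham) F5 was the highest of the sham-operated mice. The log2 fold change of Plin3 was -0.54 between ERβ cKO (sham) and WT (GDX) (SE 0.13, adjusted p = 0.0502, edgeR) and 0.40 after gonadectomy (SE 0.11, adjusted p = 0.193, edgeR). Plin2, the other droplet coat gene of the list and the one that rises with droplet load in many cells, was low, at 7.89, 10.5 and 9.33 CPM in WT (sham), 4.32, 7.52, 7.15 and 8.98 CPM in ERβ cKO (sham) and 9.63, 7.96, 6.02 and 8.26 CPM in WT (GDX). Its groups overlapped, and its log2 fold changes of -0.40, -0.23 and -0.18 (SE 0.24, 0.19 and 0.21) did not pass.

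Mgll (chr6:88724412-88828360) encodes the lipase that frees the last fatty acid from glycerol and also breaks down the endocannabinoid 2-arachidonoylglycerol. It was at 558, 462 and 459.8 CPM in WT (sham), at 347, 345, 411 and 507 CPM in ERβ cKO (sham), and at 558.5, 545.5, 504 and 497 CPM in WT (GDX). ERβ cKO (sham) F5 reached into the range of both WT groups, and the other 3 mice of its group were below every WT mouse. Mgll was lower in ERβ cKO (sham) than in WT (GDX) (log2 fold change -0.38, SE 0.11, adjusted p = 0.0959, edgeR), with -0.29 (SE 0.14, unadjusted p = 0.0497, adjusted p = 0.932, edgeR) against WT (sham) and 0.07 (SE 0.09) after gonadectomy. Lipe, which acts between Pnpla2 and Mgll, did not pass, with -0.15, 0.05 and -0.22 (SE 0.22, 0.19 and 0.14), and WT (sham) alone spanned 7.06 to 14.4 CPM. The last step of triglyceride synthesis also did not pass: Dgat1 had 0.33, 0.02 and 0.30 (SE 0.21, 0.18 and 0.15) and was the most positive of the 44 genes in both comparisons of ERβ cKO (sham), and Dgat2 had 0.02, 0.04 and -0.03 (SE 0.13, 0.11 and 0.10). For Lpin1, which makes diacylglycerol from phosphatidate, the values were -0.05, -0.16 and 0.09 (SE 0.13, 0.11 and 0.11).

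None of the 3 transcriptional regulators passed. Ppara, the receptor that turns on fatty acid oxidation genes in liver, was at 5.07, 8.04 and 8.04 CPM in WT (sham), at 5.09, 5.15, 8.21 and 4.43 CPM in ERβ cKO (sham), and between 7.93 and 9.20 CPM in WT (GDX). The WT (GDX) values were tight, but ERβ cKO (sham) F4 and WT (sham) F3 and F4 lay among them. Its log2 fold changes were -0.30, 0.26 and -0.57 (SE 0.26, 0.20 and 0.20, adjusted p = 0.150 in the last, edgeR). Ppard, a PPAR of broad expression, had 0.11, 0.13 and -0.03 (SE 0.16, 0.14 and 0.14), and the coactivator gene Ppargc1a had -0.13, 0.07 and -0.22 (SE 0.13, 0.10 and 0.10).

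The 13 genes of the carnitine shuttle and beta oxidation had a shared sign and small values, and 1 of them passed. All 13, set between ERβ cKO (sham) and WT (GDX), had negative log2 fold changes with a median of -0.29, from -0.42 to -0.01, where the median of all genes tested was 0.00. Acadl (chr1:66830839-66863277), the long-chain acyl-CoA dehydrogenase gene, was at 84.3, 74.3 and 84.2 CPM in WT (sham), at 74.3, 73.4, 77.8 and 95.4 CPM in ERβ cKO (sham), and at 106, 94.5, 111 and 108 CPM in WT (GDX). WT (GDX) was above WT (sham), while ERβ cKO (sham) F5 was above WT (GDX) F2 and the other 3 mice of its group were below every WT (GDX) mouse. Acadl was lower in ERβ cKO (sham) than in WT (GDX) (log2 fold change -0.38, SE 0.10, adjusted p = 0.0733, edgeR), with -0.01 (SE 0.13) between the sham-operated genotypes and 0.35 after gonadectomy (SE 0.09, adjusted p = 0.124, edgeR).

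Of the other beta oxidation genes, the medium-chain dehydrogenase gene Acadm came closest to the threshold between ERβ cKO (sham) and WT (GDX). It was at 52.3, 55.6 and 61.2 CPM in WT (sham), at 51.6, 54.1, 48.6 and 61.5 CPM in ERβ cKO (sham) and at 67.0, 63.3, 69.3 and 70.3 CPM in WT (GDX), so that WT (GDX) overlapped neither group (log2 fold change -0.32, SE 0.10, adjusted p = 0.103, edgeR). Cpt1a, which makes the carnitine esters and is the rate-limiting step of entry into mitochondria, was at 67.9, 63.0 and 75.5 CPM in WT (sham), 56.5, 59.3, 67.2 and 68.6 CPM in ERβ cKO (sham) and 80.3, 77.6, 78.4 and 74.4 CPM in WT (GDX), with log2 fold changes of -0.13, 0.16 and -0.30 (SE 0.12, 0.09 and 0.10). WT (GDX) was above ERβ cKO (sham) without overlap, and WT (sham) F4 reached into it. The carnitine carrier gene Slc25a20 and Cpt2, the next steps of the shuttle, had 0.25 and 0.33 after gonadectomy (SE 0.13 and 0.16), with no overlap, and -0.33 and -0.37 (SE 0.13 and 0.17) between ERβ cKO (sham) and WT (GDX). Etfb, a subunit of the electron transfer flavoprotein, had 0.34 and -0.42 (SE 0.10 and 0.14) in these comparisons, while its partner Etfa had -0.06 and -0.16 (SE 0.12 and 0.12), and Etfdh, which hands the electrons to the respiratory chain, 0.07 and -0.16 (SE 0.10 and 0.11). The exons of Etfb, 1.164 kb in all, share 617 bases with Gm45233 on the same strand. Many of its reads may therefore have been counted for both genes or for neither. Acadvl, Hadha, Hadhb, Acaa2 and Mlycd, the last a gene whose product removes the malonyl-CoA that blocks the shuttle, had log2 fold changes between -0.10 and 0.24 after gonadectomy and from -0.29 to -0.01 when ERβ cKO (sham) was set against WT (GDX), and none passed.

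The ketone body genes Bdh1 and Oxct1 did not pass in any comparison. Bdh1, which interconverts the main ketone bodies, was at 69.4, 63.3 and 62.7 CPM in WT (sham), 68.1, 62.4, 62.7 and 75.8 CPM in ERβ cKO (sham) and 78.7, 74.3, 71.4 and 75.8 CPM in WT (GDX), with log2 fold changes of 0.05, 0.19 and -0.15 (SE 0.12, 0.09 and 0.09). Oxct1 had 0.04, 0.14 and -0.12 (SE 0.11, 0.09 and 0.09) and overlapped between all groups. Of the 6 roles, ketone body use was the only one with positive values for every gene between the sham-operated genotypes.

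Counted over the 44 genes, ERβ cKO (sham) against WT (sham) had 12 positive and 32 negative log2 fold changes with a median of -0.09, where 50.8% of all genes tested were positive and their median was 0.00. An unadjusted p under 0.05 (edgeR's quasi-likelihood test) was found for 2 of the 44 genes, Fabp7 and Mgll, both negative, and for 5.33% of all genes, 3.24% positive and 2.09% negative. The groups did not overlap for 1 gene, Fabp7, against 6.34% of all genes, 3.28% higher and 3.06% lower. No gene of the 44 passed at an adjusted p under 0.1 by DESeq2 or by edgeR's exact or likelihood ratio tests either. WT (GDX) against WT (sham) had 37 positive and 7 negative values with a median of 0.12, where 48.6% of all genes were positive and their median was -0.01. Here 10 genes had an unadjusted p under 0.05, all positive, against 7.98% of all genes, 4.5% positive and 3.48% negative. The groups did not overlap for 16 genes, all higher in WT (GDX), against 8.84% of all genes, 5.87% higher and 2.97% lower. By role these were 5 of 12 synthesis genes, 2 of 5 activation and binding genes, 2 of 9 storage genes, 6 of 13 beta oxidation genes and 1 of 2 ketone body genes. ERβ cKO (sham) against WT (GDX) had 5 positive and 39 negative values with a median of -0.22, where 50.2% of all genes were positive and their median was 0.00. In this comparison 22 genes had an unadjusted p under 0.05, all negative, against 17.2% of all genes, 8.82% positive and 8.36% negative. The groups did not overlap for 12 genes, all lower in the ERβ cKO mice, against 10% of all genes, 4.24% higher and 5.77% lower.

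Of the 9 genes that passed between ERβ cKO (sham) and WT (GDX), Thrsp and Pnpla2 passed with any 1 mouse left out. The calls of Scd1, Scd2, Plin3 and Acadl were lost without ERβ cKO (sham) F1 or F3 or without any single WT (GDX) mouse. Mgll was lost in addition without ERβ cKO (sham) F4, and Fabp5 without ERβ cKO (sham) F3 or F4 or any WT (GDX) mouse. The number of the 44 genes that passed was 19 without ERβ cKO (sham) F5, 14 without F4, 4 without F1 and 3 without F3, and 3, 3, 2 and 3 without WT (GDX) F1, F2, F3 and F4. In WT (GDX) against WT (sham) it was 5 without WT (sham) F4 and 1, Thrsp, without WT (sham) F3.

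The astrocyte markers moved with these groups of genes. After gonadectomy the 15 astrocyte markers had a median log2 fold change of 0.23, with 14 positive values, and 2 passed, S100b at 0.43 and Gjb6 at 0.55. Thrsp at 0.65 and Pnpla2 at 0.71 were above the most positive marker. In ERβ cKO (sham) against WT (GDX) the markers had a median of -0.46 and a range of -0.78 to -0.14, so that Thrsp at -0.94 and Fabp5 at -0.81 were beyond the range and Pnpla2 at -0.77 was inside it. In the sham-operated mice the marker median between genotypes was -0.17, with 15 negative values and none that passed. With the mean log2 CPM of the astrocyte markers as a further term in the fit, chosen after seeing the data, 0 of the 44 genes passed in any comparison, and the medians were 0.01, 0.10 and 0.03. Thrsp then had log2 fold changes of 0.33 after gonadectomy (adjusted p = 0.685, edgeR) and -0.34 between ERβ cKO (sham) and WT (GDX) (adjusted p = 0.838, edgeR), and Pnpla2 had 0.20 and -0.45 (adjusted p = 0.869 and 0.838, edgeR). Marker sums of WT (GDX) did not overlap those of the other groups, so this term and gonadectomy cannot be told apart. Over all genes 2 passed in each comparison with WT (GDX).

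**Figure D4:**
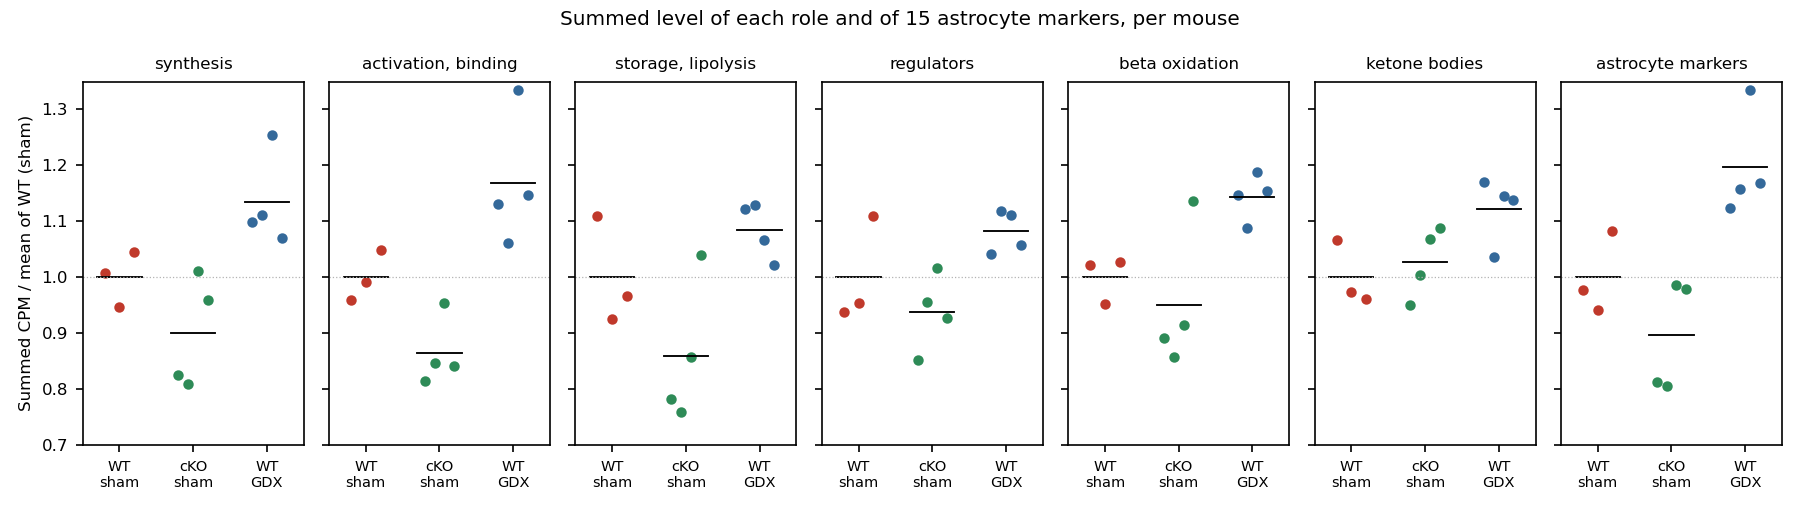
Summed CPM of each role and of the 15 astrocyte markers in each mouse, divided by the WT (sham) mean, with 1 point per mouse and a line at each group mean; the axis does not start at 0. WT (GDX) mice are at 1.07 to 1.25 for synthesis, 1.06 to 1.33 for activation and binding, and 1.12 to 1.34 for the astrocyte markers. ERβ cKO (sham) F1 and F3 are the lowest for synthesis, storage, beta oxidation and the markers.

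A sum over a role is weighted toward its most abundant gene. In WT (sham), Scd2 had a mean of 3672 CPM in a synthesis sum of 5541 to 6114 CPM. Mgll had a mean of 493 CPM in a storage and lipolysis sum of 645 to 773 CPM. Summed by role and divided by the WT (sham) mean, synthesis was at 0.825, 0.810, 1.01 and 0.959 in ERβ cKO (sham), and the astrocyte markers at 0.813, 0.806, 0.986 and 0.979 in the same mice. The mice with the lowest synthesis sums were thus those with the lowest marker sums. Beta oxidation was at 0.891, 0.857, 0.915 and 1.14, and storage and lipolysis at 0.782, 0.759, 0.858 and 1.04. There too ERβ cKO (sham) F1 and F3 were the lowest of their group, while F5 was the highest. In WT (GDX), beta oxidation was at 1.15, 1.09, 1.19 and 1.15, and synthesis at 1.10, 1.11, 1.25 and 1.07. The 44 genes varied least in WT (GDX), where their median coefficient of variation was 6.73%, against 8.86% in WT (sham) and 12.9% in ERβ cKO (sham). Over all 18882 genes compared these medians were 12.5%, 16.4% and 18.1%, and 37 of the 44 genes varied more in ERβ cKO (sham) than in WT (GDX), as did 65.6% of all genes. ERβ cKO (sham) F5 was the highest of its group for 24 of the 44 genes and F3 the lowest for 21, against 31.6% and 27% of all genes.

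Beyond the 44 genes, 130 other genes of the pathway were listed in 7 groups. Some of the 130 genes did not pass the filter on low counts and were not tested. After gonadectomy 3 of the 130 genes passed, all higher, where 0.325% of all genes tested were higher. Of these, 2 belong to peroxisomal oxidation, which shortens very long and branched fatty acids. Crot, which makes carnitine esters of the shortened chains, was at 64.5, 57.4 and 73.7 CPM in WT (sham), 57.8, 65.8, 68.4 and 72.3 CPM in ERβ cKO (sham), and 90.8, 93.1, 112 and 91.9 CPM in WT (GDX). WT (GDX) was above all sham-operated mice, whose groups overlapped, and Crot rose with a log2 value of 0.55 (SE 0.10, adjusted p = 0.0167, edgeR's quasi-likelihood test). Phyh, which starts the oxidation of branched fatty acids, rose with a log2 value of 0.37 (SE 0.09, adjusted p = 0.0979, edgeR). The largest of these values belonged to Pdk4, a PPAR target whose kinase turns off pyruvate dehydrogenase when fatty acids are burned. It was at 23.5, 29.4 and 27.7 CPM in WT (sham), 18.4, 20.2, 31.0 and 28.7 CPM in ERβ cKO (sham) and 50.5, 40.3, 49.97 and 44.3 CPM in WT (GDX). No WT (GDX) mouse overlapped the sham-operated mice, and Pdk4 rose after gonadectomy with a log2 value of 0.77 (SE 0.12, adjusted p = 0.00331, edgeR). None of the listed genes that were tested passed between ERβ cKO (sham) and WT (sham), where 0.0301% of all genes tested did.

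Set against WT (GDX), ERβ cKO (sham) had 13 of the 130 genes lower and 1 higher. Over all genes tested, 2.22% were lower and 1.93% higher. Of the 28 other lipogenic enzymes and regulators tested, 4 were lower: Insig1, which holds back the lipogenic factor SREBP, at -0.50 (adjusted p = 0.0186, edgeR), Acsbg1, which is also on the astrocyte list, Fads6 and Hacd2. None of 23 other triglyceride, droplet and lipase genes passed. Of 13 uptake and binding genes, 2 were lower, among them Dbi, the acyl-CoA-binding protein gene, at -0.44 (adjusted p = 0.0573, edgeR), and of 19 other mitochondrial oxidation genes 1 was lower, Decr1, needed for unsaturated fatty acids, at -0.51 (adjusted p = 0.0443, edgeR). Peroxisomal oxidation had 4 of 17 lower, Crot at -0.55 and Phyh at -0.48 with Scp2 at -0.43 and Abcd2 at -0.33. Pdk4 was lower at -0.90 (SE 0.15, adjusted p = 0.0135, edgeR). The 1 gene that was higher in ERβ cKO (sham) was Ppargc1b, a coactivator related to Ppargc1a, at 0.67 (SE 0.20, adjusted p = 0.0901, edgeR). It was at 4.74, 6.71 and 5.95 CPM in WT (sham), at 6.98, 8.67, 6.87 and 8.12 CPM in ERβ cKO (sham) and at 4.81, 5.13, 5.96 and 3.39 CPM in WT (GDX).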

How the data were processed

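RNA was pulled down from hippocampus with the HA tag on ribosomes. Libraries came from a stranded KAPA kit, with single reads of 50 bases. The authors used bcl2fastq 2.17, FastQC, Trimmomatic and then QuasR, which mapped reads on mm10. What they deposited is a table of unnormalized counts, 1 row for each Ensembl gene. Other tool versions, the strand setting, reads with several hits and the gene models counted were not given in the sources used here. Members with overlapping partners are therefore uncertain, and Scd2, Acsl3, Acsl1, Acsl6, Elovl6, Abhd5, Lipe, Mgll, Acadvl, Hadha, Etfb, Etfdh, Bdh1 and Oxct1 share exon bases with another gene. GENCODE M21 named 37693 identifiers, while 1324, with 0.492% of counts, had no name.

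Groups came from the sample labels, and p-values measure the spread between mice. Within each comparison a gene was dropped when over 3 samples had a count below 1, which left 19938, 19695 and 19759 genes. The test was edgeR's quasi-likelihood F test, with TMM factors and robust dispersion (edgeR 4.0.16, limma 3.58.1, R 4.3.3). Benjamini-Hochberg adjustment ran over all genes tested, with 0.1 as threshold, and the script was tested on simulated data. Replicate libraries differed beyond sampling noise. The 44 genes, all lists and the motifs were chosen with earlier results of these data known. Genes of the 44 with an adjusted p under 0.1, and the 5 smallest p of each comparison, were to be given by mouse. Of the other lists, genes with an adjusted p under 0.1 could be named. A gene among them is counted but not reported here by name. Alternatives were DESeq2 1.42.0, the exact test and the likelihood ratio test of edgeR, other scalings and filters, all groups in 1 fit, a replicate block, a threshold of 0.05 and leaving out each mouse. The astrocyte marker mean as a covariate was added after seeing the data.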

Additional observations from a re-analysis of the deposited data

Results flagged for a closer look

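In 88 groups of 4 mice (each of the 44 genes in ERβ cKO (sham) and WT (GDX)), the gap between an extreme mouse and its nearest neighbour was set against the range of the group and compared with Dixon's critical value, which chance exceeds in about 5% of groups. It was exceeded in 2. Scd2 in WT (GDX) F3 was at 4722 CPM, with the next mouse at 4042 and the lowest at 3928 CPM, a gap of 0.857 of the range. Acaa2, the mitochondrial thiolase gene, was at 56.8 CPM in ERβ cKO (sham) F5, with the next mouse at 39.1 and the lowest at 36.7 CPM, a gap of 0.879 of the range.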

How the results depend on the processing

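Thrsp and Pnpla2 each passed in 10 of 11 other settings (the stricter threshold apart) in both comparisons with WT (GDX), the exception being the astrocyte marker covariate. The other calls between ERβ cKO (sham) and WT (GDX) were also lost with that covariate. Acsl3 and Plin3 passed in the other 10 settings, Scd1 in 9 of 11 (lost also with the replicate block), Acadl in 9 (library size alone), and Scd2 in 8 (library size alone, filterByExpr). Fabp5 passed in 7 (lost also with library size alone, no filter, the replicate block) and Mgll in 6 (library size alone, filterByExpr, the filter over all 11 samples, all groups in 1 fit). Between ERβ cKO (sham) and WT (sham), 0 of the 44 genes passed in other settings except 1, Fabp7, with a replicate block (median -0.14); the median was 0.0077 with the covariate, and with 1 mouse left out the number was 0 to 1 and the median -0.15 to -0.043. In WT (GDX) against WT (sham), 6 passed with no filter, 5 with DESeq2, 4 with the likelihood ratio test and 0 with the covariate, and with 1 mouse left out 1 to 5, with medians of 0.10 to 0.17. Between ERβ cKO (sham) and WT (GDX), 3 passed at an adjusted p under 0.05, 5 with library size alone (median -0.17), 17 with DESeq2, 14 with the exact test, 20 with a replicate block (median -0.29), Scd1 and Fabp5 not among them, and 0 with the covariate (median 0.028), under which Scd1 at 0.12, Scd2 at 0.032, Plin3 at 0.024 and Mgll at 0.12 changed sign; with 1 mouse left out 2 to 19 passed, with medians of -0.27 to -0.20. In the block fit, ERβ cKO (sham) F5 and WT (GDX) F2 add nothing to their comparisons, since no mouse compared shares their number. Leaving out ERβ cKO (sham) F5 alone gave 19 genes (median -0.27) between ERβ cKO (sham) and WT (GDX). Between the sham-operated genotypes it gave 1, Fabp7 (median -0.15). The cause of the shifts was otherwise not tested. Over all genes, DESeq2 called 52, 206 and 1628 and the replicate block 76, 101 and 3117 genes, against 6, 86 and 820. Mice that share a number deviated with correlations of -0.258 to 0.177 over 9 pairs, 2 of them over 0.1, and 4 of 18 correlated best with their own number, so the block pairs mice that share only a number. With 3 or 4 mice a group, the SE of the log2 fold changes of the 44 genes limits what could be called, and the lowest genes, such as Acacb and Ppara, rest on the fewest counts.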
